A study of Mus musculus with 24 samples.

Results

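Neural stem and progenitor cells (NSPCs) heterozygous for *Kat6a* (*Kat6a*+/–, labelled HET KO) were compared after 3 days in differentiating conditions with NSPCs of the same genotype after 3 days in proliferating conditions. The comparison used the 8 *Kat6a*+/– RNA-seq libraries of a series of 24, taken by their labels, with 4 differentiating and 4 proliferating libraries. It asked how the transcriptome of cells with 1 remaining *Kat6a* allele changed when the growth factors were withdrawn, and whether that change differed from the one in *Kat6a*+/+ (WT) or *Kat6a*–/– (HOM) NSPCs.

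*Kat6a* encodes the histone acetyltransferase KAT6A (MOZ), a MYST family enzyme that works in a complex with BRPF scaffold proteins, ING5 and MEAF6. NSPCs grown with FGF2 and EGF as neurospheres keep dividing. When these factors are removed and the cells attach to a coated surface, they leave the cell cycle and form neurons, astrocytes and oligodendrocytes in varying proportions.

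NSPCs had been isolated from the dorsal telencephalon, the part of the embryonic forebrain that forms the cortex. The mouse embryos were collected at E12.5. Proliferating cells were cultured with FGF2 and EGF. Under these conditions the study describes floating neurospheres for *Kat6a*+/+ cells, and for *Kat6a*+/– cells smaller colonies with a tendency to attach. Differentiating cells were kept without either growth factor, with 1% fetal bovine serum, on poly-L-ornithine and laminin. *Kat6a*+/+ and *Kat6a*–/– NSPCs were cultured in the same 2 conditions, with 4 libraries in each group. The labels name no other allele or agent, and each library of a condition came from its own embryo. The labels do not describe the deleted part of *Kat6a*, and reads summed over the gene are therefore no check of the genotype. The differentiating *Kat6a*+/– libraries came from embryos of 4 litters and the proliferating ones from embryos of 3 litters. Among the *Kat6a*+/– libraries, embryo 4633_5 and its litter were the only ones in both conditions. By the labels, 6 embryos of the whole series had a library in both conditions. These included *Kat6a*–/– embryos 4633_6, 4746_4 and 5063_1 and *Kat6a*+/+ embryos 4113_7 and 4633_8, so that sharing of embryos was unequal between genotypes. RNA was extracted with the RNeasy mini kit from proliferating cells and with the RNeasy micro kit from differentiating cells. Kit and condition therefore cannot be told apart in any comparison between the conditions.

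Library totals were 14836869 to 17789874 reads in differentiating and 10089778 to 12542736 reads in proliferating *Kat6a*+/– NSPCs. Across the tested genes, the first principal component of the 8 libraries held 83.0% of the variance and separated the conditions. Proliferating replicate 4 stood apart from its group, at 65.4 on this component against 90.7 to 93.9 for the other proliferating libraries, and the differentiating libraries lay between -92.5 and -81.4. Of the 11 genes with 0 reads in the other 3 proliferating libraries and a mean of at least 10 CPM (reads per 1000000 reads of the TMM-scaled library total) in differentiating cells, 8 had reads in proliferating replicate 4, where they summed to 0.578% of their mean differentiating level. By the same rule, 1 of 4, 0 of 3 and 3 of 6 genes had reads in proliferating replicates 1, 2 and 3. Y-linked reads, per 1000000 reads of the unscaled library total, were 185 in differentiating and 218 in proliferating *Kat6a*+/– replicate 2. They were at most 1.63 in the other *Kat6a*+/– libraries. Sex was not a term of the fit, and its part in the levels of these libraries was not tested. In the *Kat6a*+/+ group, 2 libraries labelled as embryo 4113_7 did not match by this measure, with 211 in the differentiating and 0.0490 in the proliferating library.

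The 2 conditions differed over most of the transcriptome. Of 13590 protein-coding genes tested with limma-voom, 9466 differed at a false discovery rate (FDR) under 0.05, which is 69.7% of all genes tested. In differentiating *Kat6a*+/– NSPCs 4816 genes were higher (35.4%) and 4650 genes were lower (34.2%). A difference of over 1 on the log2 scale was called for 2679 genes that were higher (19.7%) and 1813 that were lower (13.3%). The median log2 fold-change over all genes was 0.04, and the median size of the change, without its sign, was 0.66. For 4341 genes (31.9%) all 4 differentiating libraries lay above all 4 proliferating ones, and for 4125 (30.4%) all lay below. Within litter 4633, which had 1 differentiating and 2 proliferating libraries, 9459 of the 9466 called genes (99.9%) changed in the same direction. These libraries were also part of the fit that made the calls, so this share is not independent support. With so many genes called, the share of a gene list that was called is read below against 35.4% higher and 34.2% lower.

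**Figure D1:**
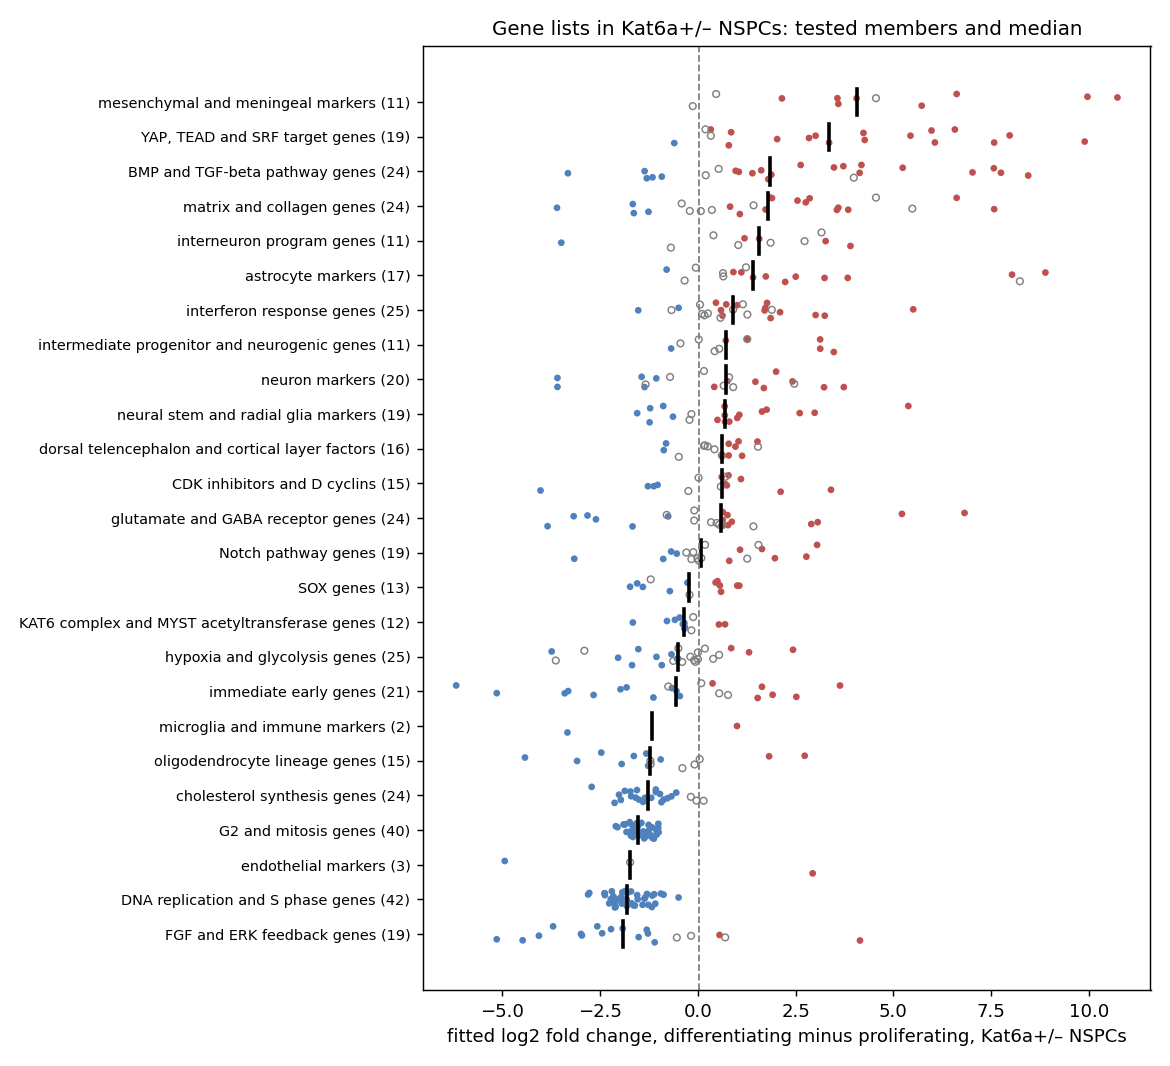
Fitted log2 fold-change (horizontal axis) of each tested member of 25 gene lists (rows, number of tested members in brackets) between differentiating and proliferating *Kat6a*+/– NSPCs. Filled red points were called higher in differentiating cells, filled blue points lower, and open points were not called. The black bar is the list median and the dashed line the median of all 13590 genes, 0.04. All 42 replication and 40 mitosis genes lie to the left of the line, while the mesenchymal and the YAP, TEAD and SRF lists reach furthest to the right.

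*Kat6a* itself, on chromosome 8 at 23349545 to 23433275 (mm39, Entrez 244349), was transcribed in both conditions. Its level was 346, 365, 368 and 333 CPM in proliferating replicates 1 to 4 and 243, 229, 257 and 215 CPM in differentiating replicates 1 to 4. The groups did not overlap, and the level fell by 0.58 on the log2 scale (SE 0.11, FDR = 5.64e-05). *Kat6a*+/+ NSPCs had 395 ± 16.7 CPM when proliferating and 267 ± 24.2 CPM when differentiating (SD, n = 4). The fall in *Kat6a*+/– cells was not detectably different from the fall in *Kat6a*+/+ cells, with a difference of -0.02 on the log2 scale and a 95% confidence interval from -0.33 to 0.30.

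The genes of DNA replication and S phase, which include the MCM helicase, the GINS complex and the DNA polymerase subunits, were lower in differentiating *Kat6a*+/– NSPCs without exception. All 42 members were tested and all 42 were called lower, beside 34.2% called lower over all genes. In all 42 every differentiating library lay below every proliferating one, beside 30.4% of all genes. The median log2 fold-change of the list was -1.82. Its summed level was 4594 to 5513 CPM in proliferating and 1070 to 1795 CPM in differentiating libraries. The largest falls were in *Uhrf1*, which recruits the maintenance DNA methyltransferase to newly replicated DNA, *Cdc7*, the kinase that fires replication origins, and *Chaf1b*, a subunit of the chromatin assembly factor. *Cdc7* was at 92.9, 95.4, 86.5 and 83.7 CPM in proliferating and at 12.3, 14.2, 13.5 and 12.4 CPM in differentiating replicates. These values varied little within either group, and the log2 fold-change was -2.77 (SE 0.14, FDR = 1.39e-12). *Uhrf1* was at 365, 374, 337 and 277 CPM in proliferating and 47.7, 61.6, 59.1 and 30.5 CPM in differentiating cells, a log2 fold-change of -2.80 (SE 0.23, FDR = 1.37e-09). The helicase subunit *Mcm2* changed by -1.94 and the polymerase clamp *Pcna* by -1.16 on the same scale. The smallest fall of the list, 0.49 on the log2 scale, was in *Gins4*.

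The genes of G2 and mitosis behaved alike. All 40 members were tested and called lower, with a median log2 fold-change of -1.51 and a summed level of 6096 to 7354 CPM in proliferating against 1920 to 2927 CPM in differentiating libraries. *Mki67*, which coats mitotic chromosomes and marks cycling cells, was at 764, 927, 867 and 827 CPM in proliferating and 213, 260.0, 300.4 and 175 CPM in differentiating replicates. The highest differentiating library lay far below the lowest proliferating one, and the log2 fold-change was -1.86 (SE 0.28, FDR = 5.92e-06). In bulk libraries such as these, fewer cells of a type and less RNA per cell cannot be told apart. The largest falls were 2.10 on the log2 scale in *Sgo1*, which protects sister chromatid cohesion, 2.05 in the checkpoint kinase *Bub1* and 1.89 in *Birc5* (survivin). All 42 replication and all 40 mitosis genes were again called lower when any single *Kat6a*+/– library was left out, with medians from -1.90 to -1.66 and from -1.60 to -1.40. Within litter 4633, whose libraries were part of the fit, every one of them was lower, with medians of -1.88 and -1.79.

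Because the mitosis genes moved as 1 group, their promoters were searched for the letters of 2 elements known from cell cycle promoters, the cell cycle genes homology region (TTTGAA) and the CCAAT box (CCAAT). The windows were RefSeq promoters on GRCm38.p6 that run from 250 bases before to 50 bases after each gene's start, read on both strands. Of the 40 mitosis genes, 32 had a window, and 33 windows were found in all. TTTGAA occurred in 24 of them (72.7%), against 5878 of all 32851 promoter windows (17.9%). CCAAT occurred in 26 (78.8%), against 37.4% of all windows, and 20 windows (60.6%) held both, against 2284 of all (6.95%). For the replication genes the check is void, because 33 of 42 (78.6%) had a window and the minimum share was set at 80%. Neither motif contains the other. A match of letters is not evidence of binding, and no binding was measured.

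The upstream 250 bases of 4 mitosis genes are given below on the strand of the gene, so that the levels of these genes can be read beside their promoters. With the genes of a single chromosome left out beforehand, 9 of the 33 windows (27.3%) held both motifs upstream of the start. The 4 genes shown are the largest falls among these, and were chosen after their values were seen. Capitals mark TTTGAA and CCAAT on either strand (TTCAAA and ATTGG on the other), and the last base lies next to the start of the gene.
*Kif11*, chr19:37376132-37376381, plus strand: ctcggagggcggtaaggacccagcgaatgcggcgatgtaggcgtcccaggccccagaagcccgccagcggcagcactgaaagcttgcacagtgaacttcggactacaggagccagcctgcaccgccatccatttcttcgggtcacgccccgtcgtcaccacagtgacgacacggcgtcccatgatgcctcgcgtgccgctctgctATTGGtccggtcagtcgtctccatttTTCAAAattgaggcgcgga
*Mki67*, chr7:135716380-135716629, minus strand: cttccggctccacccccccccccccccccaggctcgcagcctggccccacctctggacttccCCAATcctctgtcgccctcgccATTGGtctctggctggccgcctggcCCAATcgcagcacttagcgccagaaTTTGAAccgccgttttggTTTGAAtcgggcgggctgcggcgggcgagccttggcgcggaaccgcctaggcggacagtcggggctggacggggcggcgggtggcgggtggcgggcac
*Ube2c*, chr2:164769679-164769928, plus strand: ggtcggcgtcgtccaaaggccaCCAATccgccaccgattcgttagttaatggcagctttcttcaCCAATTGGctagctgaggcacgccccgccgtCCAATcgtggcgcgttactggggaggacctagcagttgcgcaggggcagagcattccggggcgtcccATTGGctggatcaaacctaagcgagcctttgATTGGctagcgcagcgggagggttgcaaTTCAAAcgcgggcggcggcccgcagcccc
*Top2a*, chr11:99024190-99024439, minus strand: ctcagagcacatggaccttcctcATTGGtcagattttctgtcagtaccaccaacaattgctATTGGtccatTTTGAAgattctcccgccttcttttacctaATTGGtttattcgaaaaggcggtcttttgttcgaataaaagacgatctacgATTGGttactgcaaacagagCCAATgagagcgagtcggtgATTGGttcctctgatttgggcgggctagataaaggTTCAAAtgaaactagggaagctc

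*Kif11*, the motor that pushes the spindle poles apart, was at 348, 351, 320.2 and 262 CPM in proliferating and 72.4, 100.4, 115 and 68.2 CPM in differentiating replicates, and its log2 fold-change was -1.87 (SE 0.22, FDR = 2.08e-07). *Ube2c*, which loads ubiquitin onto mitotic cyclins, was at 171, 173, 175 and 152 CPM against 39.7, 69.9, 64.4 and 38.3 CPM, with a log2 fold-change of -1.71. *Top2a*, which untangles replicated chromosomes, was at 899, 893, 914 and 699.6 CPM against 250.3, 316, 347 and 191 CPM, with a log2 fold-change of -1.65. In all 3 genes proliferating replicate 4 was the lowest of its group and differentiating replicate 4 the lowest of the other.

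The cyclins and kinases that govern entry into the cycle split. Of 15 CDK inhibitors, D cyclins and their partners, 7 were called higher and 4 lower, and the list median was 0.61. *Ccnd1* (cyclin D1), a target of growth factor signalling, was at 1043, 942, 994 and 1059 CPM in proliferating and 45.9, 167, 36.9 and 55.2 CPM in differentiating replicates. Differentiating replicate 2 stood above the other 3 but still far below every proliferating library, and the log2 fold-change was -4.02 (SE 0.66, FDR = 1.56e-05). *Ccnd2* (cyclin D2) went the other way, from 1125, 978, 1279 and 1345 CPM to 1889.9, 2206, 1509 and 2639 CPM, a log2 fold-change of 0.79 (SE 0.20, FDR = 0.00141). *Ccnd3* rose by 1.10 on the log2 scale. *Cdk6*, a kinase partner of the D cyclins, rose from 6.84, 5.01, 4.82 and 5.27 CPM to 38.2, 67.5, 69.3 and 65.3 CPM, a log2 fold-change of 3.41, while its relative *Cdk4* fell by 1.12. The CDK inhibitors *Cdkn1b* (p27) and *Cdkn2b* (p15) rose by 0.70 and 2.12 on the log2 scale, and *Cdkn1a* (p21) fell by 1.03 with overlapping groups.

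Genes that report FGF receptor and ERK activity were low in differentiating *Kat6a*+/– NSPCs, whose medium had no added FGF2 or EGF. Of 19 tested members 14 were called lower and 2 higher, with a median log2 fold-change of -1.92 and summed levels of 3819 to 4514 CPM against 1275 to 1799 CPM. *Spry4*, a feedback inhibitor induced by ERK, was at 617, 619.8, 701 and 532 CPM in proliferating and 17.8, 52.2, 28.1 and 22.9 CPM in differentiating replicates, a log2 fold-change of -4.47 (SE 0.55, FDR = 3.61e-07). The ETS factor *Etv4* fell by 4.06 and the ERK phosphatase *Dusp6* by 2.96 on the log2 scale. The early response factor *Egr1* was at 287 ± 198 CPM in proliferating and 7.63 ± 3.99 CPM in differentiating cells (SD, n = 4), a log2 fold-change of -5.14. The 2 members called higher were receptors. *Fgfr2* was at 11.7, 12.2, 7.67 and 20.8 CPM in proliferating and 206, 198, 220.4 and 234 CPM in differentiating replicates, a log2 fold-change of 4.15 (SE 0.22, FDR = 2.39e-12), and *Fgfr1* rose by 0.56. *Egfr*, the receptor of the other growth factor, is in the stem cell list and fell by 1.22.

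Of 21 immediate early genes, which respond within minutes to such signals, 11 were called lower and 6 higher, and the median was -0.54. *Myc* was at 192, 160.4, 204 and 143 CPM in proliferating and 16.9, 21.4, 19.6 and 12.8 CPM in differentiating replicates, a log2 fold-change of -3.31 (SE 0.19, FDR = 7.29e-12). *Egr3* fell by 6.17 and its neighbour in function *Egr1* by 5.14, but *Nr4a3*, an orphan nuclear receptor, rose by 3.64 on the log2 scale. *Mycn*, the relative of *Myc*, rose by 1.91.

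The BMP and TGF-β pathway was the counterpart, with 16 of 24 tested members called higher and 5 lower, a median log2 fold-change of 1.84, and summed levels of 1010 to 1269 CPM in proliferating and 2630 to 3359 CPM in differentiating libraries. Among the ligands, *Bmp7* fell by 3.32 on the log2 scale, whereas *Tgfb3* rose by 4.18. *Bmp6* had 1 read in the 4 proliferating libraries and 2015 reads in the differentiating ones, a ratio of 1405 with a 95% counting interval of 252 to 55510, and differentiating replicate 2 held the most, at 87.3 CPM. Among the receptors, *Bmpr1a* rose by 0.97 and *Tgfbr2* fell by 1.30. The secreted BMP antagonist *Nog* (noggin) was at 0.161, 0.100, 0.571 and 0.586 CPM in proliferating and 80.2, 63.7, 45.7 and 110.2 CPM in differentiating replicates, a log2 fold-change of 7.75 (SE 1.11, FDR = 3.12e-06). The inhibitory SMADs *Smad6* and *Smad7* rose by 7.02 and 4.14. All 4 *Id* genes, targets of BMP that block basic helix-loop-helix factors, were called higher. *Id4* went from 0.724, 0.802, 1.06 and 2.25 CPM to 248, 169.8, 254 and 187 CPM, a log2 fold-change of 7.57 (SE 1.19, FDR = 9.49e-06), and *Id1* rose by 3.48.

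The Notch pathway, which keeps neural progenitors undifferentiated, had called members in both directions among its 19 tested. 6 were called higher and 4 lower (2 without proliferating replicate 1 or 3). The list median was 0.09, and it ran from -0.0045 to 0.32 when single libraries were left out. The summed level was 1264 to 1348 CPM in proliferating and 2306 to 2683 CPM in differentiating libraries, with no overlap. The receptors *Notch1* and *Notch2* rose by 0.81 and 1.97 on the log2 scale and the ligand *Jag1* fell by 3.16, from a range of 70.5 to 102 CPM to 7.17 to 10.0 CPM. The atypical ligand *Dner* rose by 3.05. Of the target genes, *Hey1* rose by 2.78 and *Hes1* fell by 0.88. *Hes5* was at 6.12, 3.91, 9.63 and 2.44 CPM in proliferating and 9.77, 19.2, 29.7 and 10.8 CPM in differentiating replicates. The groups lay side by side with little gap, and the log2 fold-change of 1.64 (SE 0.71) had an FDR of 0.0454. That call was lost when differentiating replicate 2 or 3 or any 1 of the proliferating libraries was left out, with FDR from 0.0525 to 0.112.

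**Figure D2:**
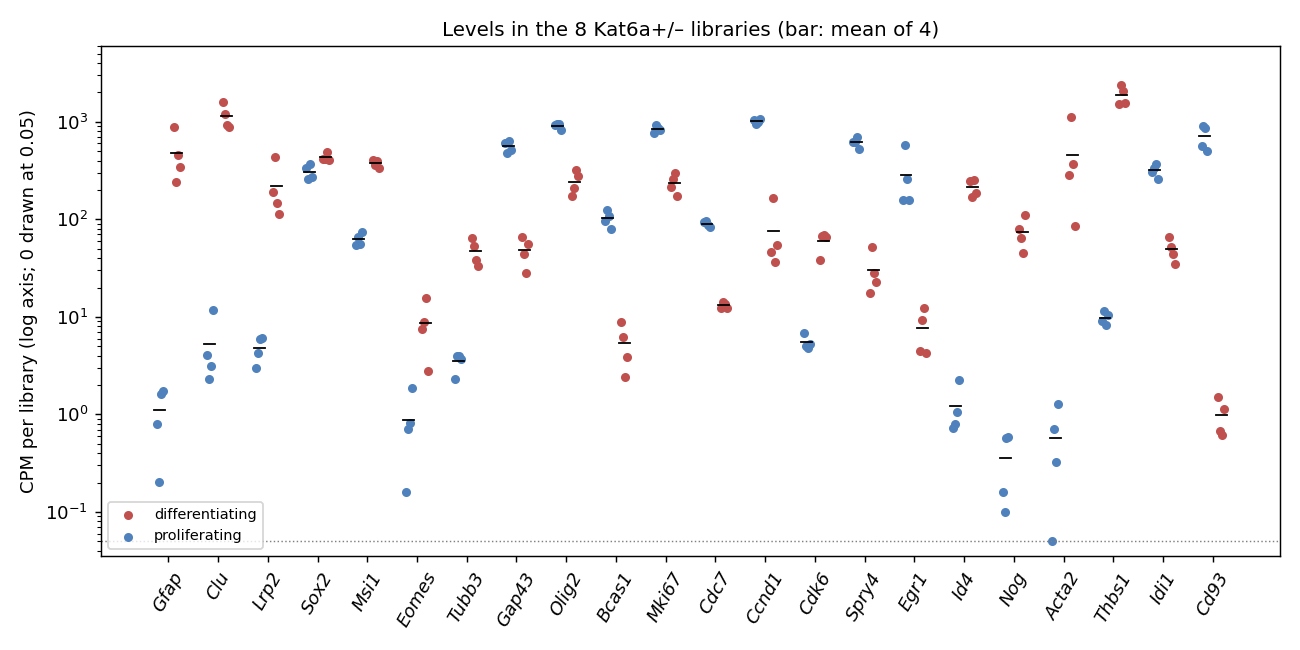
Level of 22 genes (horizontal axis) in CPM (vertical axis, log scale) in the 4 proliferating (blue) and 4 differentiating (red) *Kat6a*+/– libraries, 1 point per library, with a bar at the mean of each group and 0 drawn at 0.05. *Sox2* differed little between the conditions, while *Gfap*, *Clu*, *Id4*, *Nog* and *Acta2* lay near or below 10 CPM in all proliferating libraries apart from *Clu* at 11.8 CPM in replicate 4.

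Markers of neural stem cells and radial glia were more often higher than lower after 3 days of differentiation. Of 19 members 12 were called higher and 5 lower (3 without proliferating replicate 3), the median log2 fold-change was 0.69, and the summed level was 9470 to 9745 CPM in proliferating and 12520 to 14520 CPM in differentiating libraries. *Sox2*, a core factor of neural stem cells, was at 337, 257, 368 and 269 CPM in proliferating and 416, 419, 491 and 406 CPM in differentiating replicates, a log2 fold-change of 0.50 (SE 0.14, FDR = 0.00370). *Sox1* overlapped between the conditions, at 24.9, 22.3, 22.4 and 31.9 CPM against 30.5, 46.0, 84.2 and 54.2 CPM, and its log2 fold-change was 1.01 (SE 0.29, FDR = 0.00366). The calls of both *Sox2* and *Sox1* were lost with litter as a fixed term, at FDR of 0.0728 and 0.141. The largest rises were in the endocytic receptor *Lrp2* (5.38), the endothelin receptor *Ednrb* (2.99) and the RNA-binding protein *Msi1* (2.61). *Msi1* (Musashi) was at 54.0, 65.9, 55.3 and 75.0 CPM in proliferating and 408, 361, 399 and 338 CPM in differentiating replicates. *Nes* (nestin), the intermediate filament of dividing progenitors, fell by 1.23, from a range of 1810.2 to 2417 CPM to 630.1 to 1102 CPM. *Vim* (vimentin) rose by 0.69.

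Neuron markers did not move in 1 direction. Of 20 tested members 8 were called higher, 5 lower and 7 were not called, and the median log2 fold-change was 0.71. The summed level went the other way from the median, at 1863 to 2089 CPM in proliferating and 823 to 1031 CPM in differentiating libraries, and members with high levels were among those that fell. *Map2*, a dendritic microtubule protein, was at 931 ± 107 CPM in proliferating and 447 ± 50.8 CPM in differentiating cells (SD, n = 4), and *Gap43*, a growth cone protein, was at 611, 480.5, 638 and 509 CPM and then at 66.5, 43.9, 28.2 and 56.2 CPM, a log2 fold-change of -3.59 (SE 0.24, FDR = 8.22e-11). *Syt1*, a synaptic vesicle protein, also fell by 3.59. *Tubb3* (βIII-tubulin) rose from 2.33, 4.01, 4.00 and 3.71 CPM to 64.6, 53.0, 38.3 and 33.1 CPM, a log2 fold-change of 3.73 (SE 0.46, FDR = 4.08e-07). *Dcx* (doublecortin), a protein of migrating neuroblasts, was at 1.37, 2.41, 5.14 and 9.76 CPM in proliferating and 26.9, 30.3, 11.96 and 13.8 CPM in differentiating replicates, a log2 fold-change of 2.42 (SE 0.81, FDR = 0.0117). *Rbfox3* (NeuN), which marks mature neurons, was at 2.99 ± 1.75 and 5.03 ± 2.12 CPM and was not called (FDR = 0.126).

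Of 17 intermediate progenitor and neurogenic genes, 11 were tested, of which 5 rose and 1, *Dll1*, fell, and the median log2 fold-change was 0.72. The other 6, among them *Neurog1* and *Neurod2*, had too few reads. *Eomes* (TBR2), the marker of cortical intermediate progenitors, was at 0.161, 0.702, 0.816 and 1.85 CPM in proliferating and 7.53, 8.76, 15.6 and 2.76 CPM in differentiating replicates. The lowest differentiating library was close to the highest proliferating one, and the log2 fold-change was 3.48 (SE 0.87, FDR = 0.00137). *Insm1*, a factor of newly committed progenitors, rose by 3.13, with replicates 2 and 3 (122 and 121 CPM) above replicates 1 and 4 (44.0 and 43.6 CPM). *Dll1*, a Notch ligand, fell by 0.68 on the log2 scale (SE 0.29, FDR = 0.0433), and its groups overlapped. This call was lost without differentiating replicate 1 or 4 or proliferating replicate 1, 2 or 3, which left 0 called lower.

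Of 18 interneuron genes 11 were tested, 4 were called higher, 1 lower and 6 were not called, and the median was 1.57. The share called higher was near the 35.4% of all genes. *Gad1*, which makes GABA, fell from 3.41 to 6.28 CPM to 0.0556 to 1.27 CPM. *Dlx5* had 3 reads in the proliferating and 144 in the differentiating libraries, a ratio of 33.5 with a 95% counting interval of 11.2 to 164.2. Among dorsal telencephalon and cortical layer factors 16 of 20 were tested, 7 were called higher and 2 lower, and the median was 0.62 (0.39 without differentiating replicate 2). *Emx1*, the marker of the dorsal telencephalon from which the cells came, had 0 reads in all 8 libraries, and the cortical layer factors *Tbr1* and *Fezf2* had 13 and 12 reads in total.

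Astrocyte markers were higher, with 10 of 17 tested members called higher and 1 lower, and a median log2 fold-change of 1.41. Their summed level was 1753 to 2142 CPM in proliferating and 3571 to 6431 CPM in differentiating libraries. *Gfap*, the intermediate filament of astrocytes, was at 0.805, 0.201, 1.63 and 1.76 CPM in proliferating and 881, 239, 461 and 347 CPM in differentiating replicates, a log2 fold-change of 8.89 (SE 1.93, FDR = 0.000362). Differentiating replicate 1, from embryo 4633_5, was the highest library for both *Gfap* and the whole list. *Clu* (clusterin), a secreted chaperone, was at 4.02, 2.31, 3.10 and 11.8 CPM and then at 1591, 1216, 933 and 884 CPM, a log2 fold-change of 8.03 (SE 0.49, FDR = 2.35e-11). *Apoe*, the lipid carrier of astrocytes, rose by 3.24. The water channel *Aqp4* was at 0.310 ± 0.105 CPM in proliferating and 122 ± 92.6 CPM in differentiating cells (SD, n = 4) and was not called (FDR = 0.0654), with 258 CPM in replicate 1 and 52.8 to 89.0 CPM in the others. The hyaluronan receptor *Cd44* was the 1 member that fell.

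Genes of the oligodendrocyte lineage were lower on balance, with 8 of 15 tested members called lower and 2 higher, a median log2 fold-change of -1.21, and summed levels of 2414 to 2723 CPM against 1327 to 1896 CPM. *Olig2* was at 931, 950.3, 945 and 832 CPM in proliferating and 172, 211, 317 and 276 CPM in differentiating replicates, a log2 fold-change of -1.94 (SE 0.20, FDR = 4.91e-08). Its neighbour *Olig1* was at 1195 ± 71.0 and 1146 ± 232 CPM (SD, n = 4) and was not called (FDR = 0.642). The largest falls were in *Bcas1*, which marks early myelinating cells (4.42 on the log2 scale), and in the zinc finger gene *Zfp488* (3.08). The progenitor proteoglycan *Cspg4* (NG2) fell by 2.47. *Mbp*, which encodes a myelin protein, was at 0.724, 0.301, 0.979 and 1.56 CPM and then at 8.02, 6.69, 2.06 and 8.74 CPM, a log2 fold-change of 2.73 (SE 0.83, FDR = 0.00627). Without proliferating replicate 1 or 3, 1 member was called higher in place of 2.

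**Figure D3:**
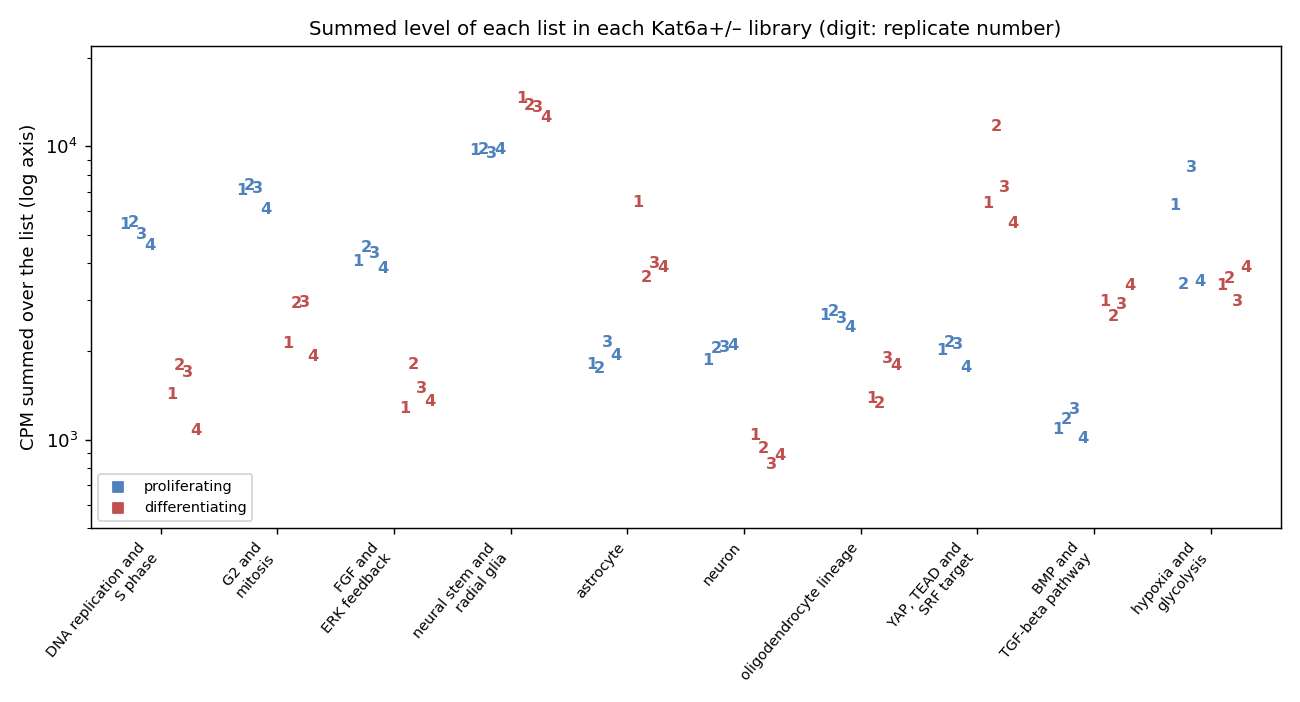
CPM summed over the members of 10 gene lists, tested or not (horizontal axis), in each *Kat6a*+/– library, on a log scale (vertical axis). The digit gives the replicate number, in blue for proliferating and red for differentiating libraries. The conditions are separate for every list shown except hypoxia and glycolysis, in which proliferating replicates 1 and 3 lie above all other libraries.

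Targets of YAP, TEAD and SRF, which respond to attachment and actin tension and to serum, were higher in the differentiating libraries. Of 19 tested members 16 rose and 1 fell. The median log2 fold-change was 3.36, with summed levels of 1756 to 2143 CPM against 5456 to 11670 CPM. Without differentiating replicate 2 the median was 3.00, and 16 members were again called higher and 1 lower. *Acta2* (smooth muscle actin) was at 0, 0.702, 0.326 and 1.27 CPM in proliferating and 287, 1110.4, 365 and 85.3 CPM in differentiating replicates, a log2 fold-change of 9.89 (SE 2.72, FDR = 0.00294). Replicate 2 held the most *Acta2* and also the most *Ccn2* (connective tissue growth factor), at 1322 CPM against 148 to 200.4 CPM in the other differentiating libraries. *Thbs1* (thrombospondin 1) was even across the group, at 9.17, 11.5, 8.24 and 10.3 CPM and then at 1531, 2372, 2078 and 1564 CPM, a log2 fold-change of 7.58 (SE 0.33, FDR = 2.1e-13).

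Matrix and collagen genes had 13 of 24 tested members called higher and 4 lower, and a median log2 fold-change of 1.79. The summed level was 4662 to 4854 CPM in proliferating and 10230 to 13690 CPM in differentiating libraries, with replicate 2 the highest. *Fn1* (fibronectin) rose by 3.56, to 524, 1243, 455 and 564 CPM, and the matricellular protein *Sparc* by 2.76. The 4 members that fell were *Bcan*, *Vcan*, *Lama4* and *Spp1*, of which *Bcan* (brevican) and *Vcan* (versican) are proteoglycans of brain matrix and fell by 1.66 and 1.26. *Postn* (periostin) was at 26.6, 30.3, 12.3 and 0.807 CPM in differentiating cells, a log2 fold-change of 6.62 (SE 2.59, FDR = 0.0280), and its call was lost without proliferating replicate 1, 2 or 3, at FDR of 0.0606 to 0.0689.

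Markers of mesenchymal and meningeal cells moved with these lists, but the lists share members and are not independent. *Thbs1* is in both the YAP and the matrix list. *Col1a1*, *Col1a2* and *Postn* are tested in both the matrix and the mesenchymal list. Of the mesenchymal and meningeal list, the counts were as follows. 8 of 11 tested members were called higher (5 without proliferating replicate 1, 2 or 3) and none lower, the median log2 fold-change was 4.06, and the summed level was 156 to 224 CPM in proliferating and 518 to 789.8 CPM in differentiating libraries. *Ogn* (osteoglycin) was at 0, 0.100, 0 and 1.27 CPM and then at 266, 257, 241 and 136 CPM. *Islr* had 0 reads in the proliferating libraries and 2933 in the differentiating ones, so that it was at least 682-fold higher against a floor of 3 counts over the group. Other defining markers of these cells were at or near 0, since *Lum* had 0 reads, *Dcn* 6 and *Col3a1* 23 in all 8 libraries together, and 46 of the 51 reads of *Twist1* came from differentiating replicate 2. The part of such cells in the matrix and YAP results was not tested. Of 10 endothelial markers 3 were tested, with 1 called higher and 1 lower (2 lower without proliferating replicate 3), and of 11 microglia markers 2 were tested, with 1 called in each direction. *Cx3cr1*, *C1qa*, *C1qb*, *Tyrobp* and *Trem2* had 0 reads, and *Pecam1*, *Cdh5* and *Cldn5* had 16, 1 and 3 reads in all 8 libraries.

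Cholesterol synthesis genes were lower, with 21 of 24 called lower and none higher (1 without differentiating replicate 4), a median log2 fold-change of -1.27, and summed levels of 6574 to 8332 CPM against 2475 to 4313 CPM. *Idi1*, which isomerises isoprenoid units, was at 307, 339, 365 and 261 CPM in proliferating and 65.8, 52.2, 44.6 and 34.8 CPM in differentiating replicates, a log2 fold-change of -2.71 (SE 0.18, FDR = 4.66e-11). *Sqle*, the epoxidase of the same pathway, was at 393 ± 15.5 and 440.1 ± 61.5 CPM (SD, n = 4) and was not called (FDR = 0.211).

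Hypoxia and glycolysis genes had 3 of 25 tested members called higher and 9 lower, with a median of -0.50, so that the share called lower was near that of all genes. The proliferating libraries were not alike. The list summed to 3369 to 8453 CPM in them and to 2966 to 3856 CPM in differentiating libraries. The angiogenic factor *Vegfa* was at 275, 77.3, 420.5 and 71.8 CPM in proliferating replicates 1 to 4 and at 33.0, 48.4, 37.6 and 39.0 CPM in differentiating ones, a log2 fold-change of -2.04 (SE 0.55, FDR = 0.00248). The lactate transporter *Slc16a3* was at 44.4 and 116 CPM in proliferating replicates 1 and 3 and at most 2.81 CPM in the other 6 libraries, and was not called (FDR = 0.172). When single *Kat6a*+/– libraries were left out, the number called lower ranged from 6 to 12 and the median from -0.69 to -0.04. The oxygen sensor *Egln3* went against the list, with 45.0, 10.2, 75.1 and 8.59 CPM and then 139, 103, 168 and 141 CPM, and its log2 fold-change was 2.44.

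Of 25 tested interferon response genes 13 were called higher and 2 lower, and the median was 0.90. The changes were at low levels for the antiviral gene *Ifit3*, at 6.99, 6.28, 2.39 and 6.86 CPM in differentiating and up to 0.490 CPM in proliferating cells, while *Ifi27* rose by 3.01 to 32.7 to 55.9 CPM. Of 24 tested glutamate and GABA receptor genes 10 were called higher and 6 lower, and the median was 0.58. The shares called in this list, as in the neuron, Notch and SOX lists, lay near those of all genes. The AMPA receptor subunit *Gria1* rose by 6.82, to 71.9, 28.8, 53.1 and 9.68 CPM. The metabotropic receptor *Grm5* was at 242, 235, 314 and 255 CPM in proliferating and 31.5, 28.8, 28.9 and 26.1 CPM in differentiating replicates, a log2 fold-change of -3.17 (SE 0.12, FDR = 1.84e-14).

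Genes of the KAT6 complexes and the other MYST acetyltransferases changed by small amounts. This list and the SOX list below were picked by the study from these same samples, so that their counts are not independent evidence. Of 12 members 8 were called lower and 2 higher, the median was -0.34, and the 1 change past 1 on the log2 scale was in *Ing5*, which fell by 1.66 from 41.4, 35.4, 33.8 and 32.8 CPM to 9.64, 15.2, 11.3 and 10.2 CPM. *Kat7* (HBO1) fell by 0.79, and *Kat6b*, the closest relative of *Kat6a*, rose by 0.54 from 56.1 ± 1.68 to 82.0 ± 8.77 CPM (SD, n = 4). The 13 SOX genes had a median of -0.21, and 6 of them rose while 5 fell. The median ran from -0.32 to -0.07 when single libraries were left out and was 0.12 in a fit of the 8 *Kat6a*+/– libraries alone, so that it has no stable sign. The summed level of the list was 1850 to 2289 CPM in proliferating and 2419 to 3052 CPM in differentiating libraries. *Sox4* and *Sox11*, both group C factors of young neurons, moved apart. *Sox4* rose by 1.06 to 985, 994, 1332 and 1030.5 CPM, and *Sox11* fell by 1.73 to 58.2, 138, 93.2 and 71.3 CPM. *Sox3* fell by 1.55. Without differentiating replicate 2 the number of SOX genes called lower was 3 in place of 5, and it was also 3 without proliferating replicate 3.

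Rises and falls were ranked among called genes with an average above 1 on the log2 CPM scale and no overlap between the conditions. The largest rise was in *Fmod* (fibromodulin), a collagen-binding proteoglycan. It had 0 CPM in proliferating replicates 1 to 3, 1.07 CPM in replicate 4, and 242, 321, 148 and 249 CPM in differentiating replicates. *Ogn* followed at a log2 fold-change of 10.73, and then came the zinc transporter *Slc39a12* (10.07), *Acta2* (9.89), the collagen *Col8a1* (9.71), the calmodulin-binding peptide *Pcp4* (9.38), *Plxdc1* (9.15), the sphingosine phosphate receptor *S1pr3* (9.09), the claudin *Cldn19* (8.94) and *Gfap* (8.89). For all 10 of these genes proliferating replicate 4 held the highest level of its group. Without it the log2 fold-change was 12.47 in place of 11.20 for *Fmod* and 10.83 in place of 9.71 for *Col8a1*. Levels near 0 in proliferating cells make these fitted values imprecise, with SE from 1.12 to 3.48 on the log2 scale.

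The largest falls included surface and signalling proteins. *Cd93*, a C-type lectin-like receptor, was at 563, 909.8, 858 and 507 CPM in proliferating and 1.51, 0.669, 0.612 and 1.14 CPM in differentiating replicates. This log2 fold-change of -9.51 (SE 0.84, FDR = 4.32e-09) was the largest fall among the genes ranked in this way. The others were the Groucho relatives *Tle6* (-7.32) and *Tle2* (-5.59), *Col28a1* (-7.29), the copine *Cpne7* (-7.12), the integrin *Itga4* (-7.05), the activity-regulated gene *Arc* (-6.87), the matrix protein *Fbln2* (-6.54), the DNA-sensing adaptor *Sting1* (-5.89) and *Hmga2* (-5.56). *Hmga2*, a chromatin protein of fetal stem cells, was at 55.0, 50.3, 37.9 and 38.3 CPM in proliferating cells and at 0.181, 8.76, 0.834 and 0.538 CPM in differentiating ones, where replicate 2 again stood out.

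The response to differentiation conditions in *Kat6a*+/– NSPCs was then set against that of *Kat6a*+/+ NSPCs, as a difference of the 2 log2 fold-changes within the same fit. None of 13590 genes was called (0%), and the smallest FDR was 1.00. At an unadjusted p under 0.05 there were 412 genes with limma, 429 with the edgeR quasi-likelihood test and 506 with DESeq2, both of which also called 0. The number expected with no difference in any gene was 679.5, and each of these counts lay below it. With library quality weights the limma count was 1245. The median SE of the difference was 0.21 on the log2 scale. *Mki67* differed by 0.20 with a 95% confidence interval from -0.63 to 1.03, and *Sox2* by 0.01 with an interval from -0.41 to 0.44. For *Ccnd1* the interval ran from -0.71 to 3.30 and for *Gfap* from -8.54 to 4.56, so that sizeable differences in these genes were not detectable. The gene with the smallest p was *Uaca*, at a difference of 0.74 (limma, unadjusted p = 8.47e-05, FDR = 1.00). *Uaca* was at 86.2 ± 10.7 CPM in proliferating and 65.5 ± 7.25 CPM in differentiating *Kat6a*+/– cells (SD, n = 4). None of the 40 mitosis genes reached an unadjusted p of 0.05, and their median difference was 0.21. Their median log2 fold-change was -1.72 in *Kat6a*+/+ cells. Leaving out either of the libraries labelled 4113_7 also gave 0 called genes.

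Against *Kat6a*–/– NSPCs the response did differ. The log2 fold-change was called different in 741 genes (5.45%), 234 with a higher and 507 with a lower value in *Kat6a*–/– than in *Kat6a*+/– cells. When libraries were scaled by their totals and not by TMM factors there were 964, of which 154 were higher and 810 lower, and the median over all genes shifted to -0.11. The count was 486 without differentiating *Kat6a*+/– replicate 3 and 1690 without differentiating *Kat6a*–/– replicate 2. Both comparisons of genotypes share the *Kat6a*+/– libraries.

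The mitosis genes accounted for 40 of the 507 genes called lower, out of 13590 tested. All 40 fell further in *Kat6a*–/– cells, by a median of 2.67 on the log2 scale beyond the fall in *Kat6a*+/– cells, and over 29 alternative fits 39 or 40 of them were called, with medians from -3.03 to -2.38. *Mki67* was at 237 ± 54.5 CPM in differentiating *Kat6a*+/– and 24.2 ± 17.3 CPM in differentiating *Kat6a*–/– cells, while the proliferating levels were 847 ± 68.4 and 758 ± 189 CPM (SD, n = 4). The difference of its log2 fold-changes was -3.37 (SE 0.43, FDR = 0.000123). Of the 42 replication genes 25 were called lower, beside 507 of 13590 over all genes. Their median difference was -1.23, and 21 to 37 of them were called lower over the same fits. *Insm1* differed by -4.14 and *Olig2* by -1.18. Both were lower in differentiating *Kat6a*–/– cells, at 7.40 ± 4.03 and 123 ± 41.3 CPM, than in differentiating *Kat6a*+/– cells, at 82.8 ± 45.0 and 244 ± 64.8 CPM (SD, n = 4). In proliferating cells *Olig2* was at 1023 ± 55.8 CPM in *Kat6a*–/– and 914 ± 55.8 CPM in *Kat6a*+/– libraries, which also enters its difference.

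**Figure D4:**
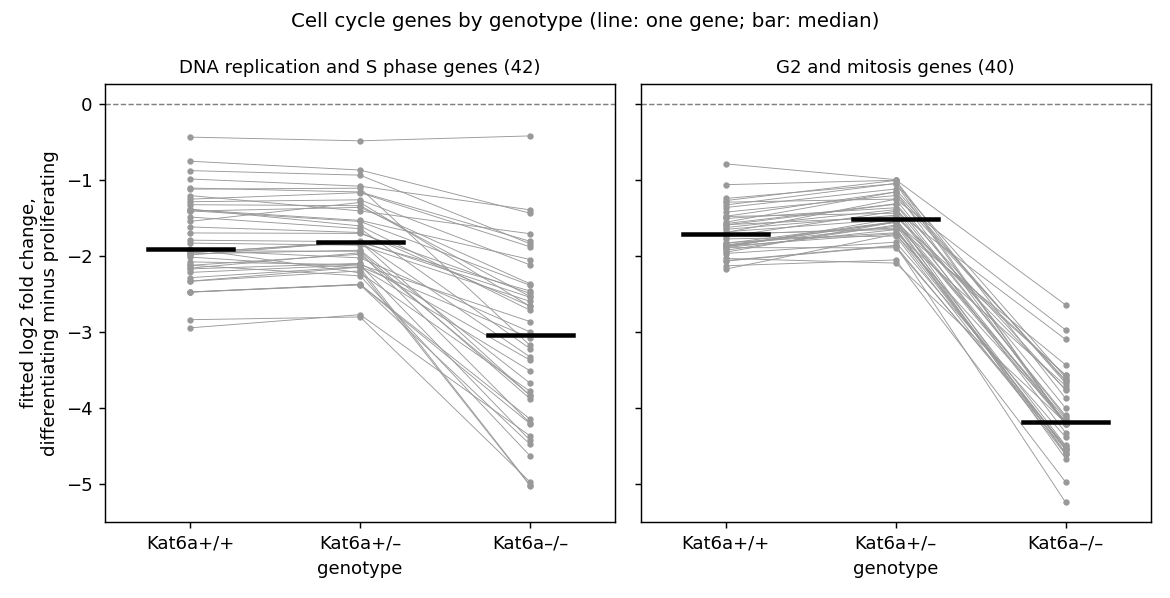
Fitted log2 fold-change between differentiating and proliferating NSPCs (vertical axis) of 42 replication (left) and 40 mitosis genes (right) in each genotype (horizontal axis). Each line joins the values of 1 gene and bars are medians. The medians of the mitosis genes were -1.72 in *Kat6a*+/+, -1.51 in *Kat6a*+/– and -4.18 in *Kat6a*–/– NSPCs.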

How the data were processed

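RNA was sequenced after 3 days of culture as stranded libraries of polyadenylated RNA made from 200 ng of RNA. The authors aligned reads to mm39 with Rsubread and deposited raw read counts per gene from featureCounts with a strict RefSeq mm39 annotation. The versions of these tools and the strand setting were not given in the sources used here, so overlapping and near-identical genes are uncertain. Per the labels, the litter is the first part of the embryo number.

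All 24 libraries (6 groups of 4) were fitted together in R 4.3.3. Of 26411 genes in the deposited count tables, protein-coding ones (RefSeq biotype by Entrez identifier) that passed filterByExpr of edgeR 4.0.16 were kept, without *Xist* and Y-linked genes, leaving 13590. Counts were scaled by TMM and fitted with limma 3.58.1 (voom, litter as a random block with a within-litter correlation of 0.00365, robust moderation). Benjamini-Hochberg adjustment covered all genes tested, with calls at FDR under 0.05. CPM are counts per 1000000 counts of the TMM-scaled total. Depth limits genes with few reads, and counting intervals cover counting error only. Alternatives were the edgeR quasi-likelihood test, DESeq2 1.42.0, other scalings and filters, other blocks, library quality weights and leaving out each library.

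The members and the gene lists were chosen with earlier results of these data known. Genes named are a fixed set of 12, the 10 largest rises and falls, and the 3 largest called changes of each list. The extremes of each difference between genotypes are named as well. The 10 largest rises and falls were taken among called genes with an average log2 CPM above 1 and no overlap between the conditions. Further list members named in the text were chosen after their values were seen. Some genes that this rule names are not reported here. Promoter windows came from RefSeq on GRCm38.p6, and gene positions are on mm39.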

Additional observations from a re-analysis of the deposited data

Results flagged for a closer look

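Groups of 4 values were tested for 102 named genes, the 25 list sums and 3 measures of the libraries, each in both conditions. Among these 260 groups, 29 had 1 library far from the other 3. Chance alone would give about 1 in 20 if the values were normally distributed. That rate does not hold for genes near 0 CPM, where 1 read can be flagged, as for *Bmp6* in proliferating cells. The 29 flagged groups are therefore not compared with chance. Proliferating *Kat6a*+/– replicate 4 held 9 of them, with the lowest level of *Olig2* (831.6 CPM) and *Egr3* (3.71 CPM) and the highest of *Fmod* (1.07 CPM), *Ogn* (1.27 CPM), *Slc39a12* (1.27 CPM), *Col8a1* (0.683 CPM), *Plxdc1* (0.293 CPM), *Bmp6* (0.0976 CPM) and *Gria1* (1.37 CPM). Differentiating replicate 2 was the highest for *Ccnd1* (167 CPM), *Col8a1* (356 CPM), *Hmga2* (8.76 CPM), *Bmp6* (87.3 CPM), *Ccn2* (1322 CPM), *Adm* (10.6 CPM) and the summed matrix and collagen list (13690 CPM).

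Differentiating replicate 3 was the highest for *Sox2* (491 CPM), *Myb* (4.78 CPM) and the summed SOX list (3052 CPM) and the lowest for *Ifit3* (2.39 CPM). Differentiating replicate 4 was the highest for *Pcp4* (169 CPM), *Itga4* (4.64 CPM) and *Tle2* (3.83 CPM). Differentiating replicate 1 was the lowest for *Cdk6* (38.2 CPM) and the highest for the summed astrocyte list (6431 CPM). Proliferating replicate 2 was apart for *Zfp488* (2.51 CPM) and *Sox13* (35.8 CPM), and proliferating replicate 3 for *Neurog2* (0.326 CPM) and the summed Notch list (1348 CPM).

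The response to differentiation conditions differed between *Kat6a*–/– and *Kat6a*+/– NSPCs in 18 of the named genes, at an FDR under 0.05 for the difference itself. It was lower in *Kat6a*–/– cells by the following log2 values: *Insm1* -4.14, *Myb* -3.89, *Xkr5* -3.78, *Mki67* -3.37, *Bub1* -2.92, *Birc5* -2.60, *Uhrf1* -2.17, *Sgo1* -2.10, *Chaf1b* -2.09, *Ednrb* -1.85, *Cdc7* -1.59 and *Olig2* -1.18. It was higher by 0.91 for *Uaca*, 1.00 for *Atp10a*, 1.15 for *Gap43*, 2.78 for *Tcim*, 2.82 for *Pdlim4* and 3.11 for *Tm4sf1*. Several of these, among them *Xkr5* and *Tm4sf1*, were named because this difference was among the largest.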

How the results depend on the processing

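The number of genes called between the conditions in *Kat6a*+/– NSPCs was 8387 to 10146 under the other settings and 8951 to 9379 when single libraries were left out. The difference between *Kat6a*+/– and *Kat6a*+/+ gave 2 genes with litter as a fixed term (*Slf2*, *Cpne8*), 1 with library quality weights (*Uaca*) and 0 to 1 without single libraries (*Slf2*, without differentiating *Kat6a*+/+ replicate 2). The difference between *Kat6a*–/– and *Kat6a*+/– gave 1396 genes with DESeq2, 471 with only those 2 genotypes fitted, 378 with litter as a fixed term, 2451 with quality weights and 486 to 1690 without single libraries, and the cause was not tested. Among the 102 named genes, *Atp10a* (0.046) and *Xkr5* (0.18) changed sign with litter as a fixed term, both uncalled. In 5 genes a call was lost in at least 1 setting: *Hes5*, *Postn*, *Sox1*, *Sox2* and *Neurog2* (FDR = 0.253 with litter fixed).

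Same-numbered libraries of the 2 conditions correlated at -0.12, 0.03, 0.02 and 0.19, and only differentiating replicate 4 correlated best with its own number, so the numbers were not used as pairs. With a replicate block 9491 genes were called between the conditions, and 0 and 705 for the 2 differences. With embryo in place of litter as the random block, these counts were 9427, 0 and 696. Depth limits genes near 0 CPM in 1 condition.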
